A study of Mus musculus with 9 samples.

Results

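The livers of mice with bile duct ligation (BDL) were compared with those of sham-operated mice, with attention to gene families, the genes that define hepatocytes and the markers of the other cells of the liver. In BDL the common bile duct is tied off, so that bile backs up into the liver. The comparison used 6 of the 9 libraries of the series, 3 labelled sham and 3 labelled BDL. The other 3 came from ligated mice given ligustilide (LIG, a phthalide of Angelica and Ligusticum roots) and entered only the estimate of spread. Neither group compared here received LIG. The sources used here give no strain, sex, age or time between surgery and sampling, and the labels call every sample liver. Whether the 3 libraries of a group stem from 3 different mice is not recorded, so the spread behind the p-values may be partly or wholly technical.

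Expression was measured by RNA-seq and deposited as FPKM (fragment counts normalised for transcript length and sequencing depth), a scale that allows levels of different genes to be compared. The 6 libraries held 34815899 to 40780449 fragments. Of 21470 genes in the table, the 9430 with at least 1 FPKM in at least 3 of the 6 libraries were tested with limma, with all 9 libraries in the fit. A difference is BDL minus sham on the scale of log2(FPKM + 1) ± its standard error, which understates the change of genes near 1 FPKM. Genes are said to rise or fall where the Benjamini-Hochberg adjusted p was under 0.05. Values of single libraries are in FPKM, in the order of replicate numbers 1 to 3. With 3 against 3 libraries the smallest p of an exact two-sided permutation test is 0.1, and the calls rest on the spread that limma shares across genes. Hepatocyte transcripts dominated all 6 libraries, with Alb, the albumin gene, at 16179 to 33912 FPKM. Sham library 1 stood apart from the other sham libraries, with Pearson correlations of 0.973 and 0.962 with them across genes, against 0.988 between those 2 and 0.993 to 0.996 among the BDL libraries. The median gene had an SD of 0.25 on the log2 scale in sham and 0.0959 in BDL, and counts of the lists below that moved by more than 1.5 times and by at least 3 genes without 1 sham or BDL library are given beside them.

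Hepatocytes make most plasma proteins and carry out the detoxification, amino acid, lipid and bile acid chemistry of the liver. A network of transcription factors that includes HNF4A, FOXA and C/EBP proteins maintains these functions, and the work is divided along the lobule between periportal and pericentral cells. In mice part of the program also differs between males and females, because the pulses of growth hormone secretion differ and act through STAT5B. Cholestasis exposes hepatocytes to retained bile acids and is known for bile duct proliferation, inflammation and periductal fibrosis.

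After ligation 2833 of the 9430 tested genes changed (30.0%). Of these, 2152 rose (22.8%) and 681 fell (7.22%), and these shares are the background for every list below. Changes of at least 1 on the log2 scale were called in 701 genes that rose (7.43%) and 239 that fell (2.53%). All 3 BDL libraries lay above all 3 sham libraries in 3135 tested genes (33.2%) and below them in 1118 (11.9%), so that the groups did not overlap in 4253 (45.1%). The median difference of all tested genes was 0.16. That median, and the split of calls, depended on scaling: 76% of calls were rises as deposited, 47.6% with median-of-ratios scaling (1317 rises and 1448 falls, median -0.07), 51.7% with quantile normalization and 50.9% with a trend in gene length removed. Without sham library 1 there were 3481 rises and 933 falls, without BDL library 1 there were 1724 and 484, without BDL library 2 there were 1369 and 447, and without BDL library 3 there were 1368 and 453. Small differences are therefore read against the median, and list counts with median-of-ratios scaling are given where they moved by more than 1.5 times and by at least 3 genes. Rises and falls were spread unevenly over abundance. Among 1903 genes with a mean under 2 FPKM, 472 rose and 62 fell. Among 630 genes with a mean of at least 100 FPKM, 119 rose and 122 fell, with a median of -0.03.

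The most abundant transcripts took up different shares of the libraries. Major urinary protein transcripts, which encode pheromone-binding proteins of male mouse urine, made up 3.00%, 4.69% and 4.04% of the summed FPKM of the sham libraries and 0.629%, 0.627% and 0.59% of that of the BDL libraries. Serpins, a family of protease inhibitors and hormone carriers, went from 6.42%, 7.25% and 6.23% to 2.46%, 2.31% and 2.28%. Genes of iron and haem handling, a list that includes transferrin, lipocalin-2 and haptoglobin, went the other way, from 4.54%, 5.47% and 4.70% to 12%, 12.3% and 12.6%. Complement and coagulation genes took 2.85% to 4.05% in sham and 5.52% to 5.6% in BDL. For these 4 groups no BDL library reached the range of the sham libraries. The 13 proteins encoded by the mitochondrial genome took 12.6%, 10.6% and 16.8% in sham and 9.76%, 9.2% and 8.3% in BDL. Carriers and hormones of the plasma, albumin among them, overlapped at 14.5% to 17.2% and 14.4% to 16.1%.

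**Figure D1:**
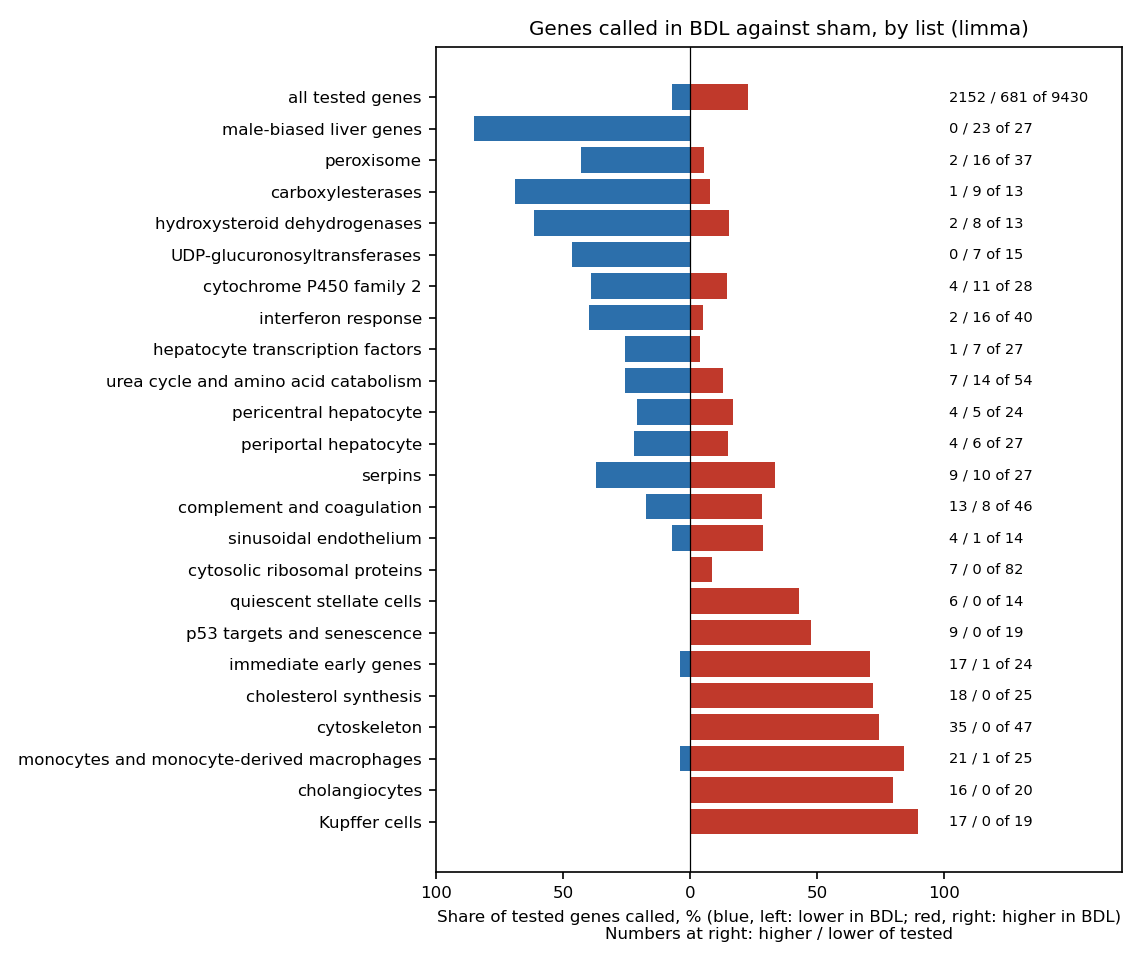
Share of the tested members of 23 gene lists and families that fell (bars to the left) or rose (bars to the right) in BDL against sham, with all 9430 tested genes at the top. Male-biased liver genes have the longest bar to the left (23 of 27) and Kupffer cell markers the longest to the right (17 of 19). The text gives how many marker genes passed the filter through 1 group only.

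Several transcription factors of hepatocyte metabolism fell, while HNF4A and the FOXA factors did not pass the test. Of 28 listed factors 27 were tested, of which 7 fell, 1 rose and 19 did not pass, with a median of -0.22. Hnf4a, the nuclear receptor at the centre of the hepatocyte program, stood at 129, 103 and 119 FPKM in sham and 109, 112 and 115 in BDL (-0.06 ± 0.12, adjusted p = 0.77). Its groups overlapped, as did those of Foxa2, a pioneer factor (-0.14 ± 0.16, adjusted p = 0.524), and of Prox1 (0.41 ± 0.29, adjusted p = 0.322). Without sham library 1 Prox1 rose (0.79). Cebpa, a factor of mature hepatocyte metabolism, fell from 163, 167 and 267 to 92.3, 88.2 and 88.7 FPKM (-1.10 ± 0.19, adjusted p = 0.00191). The related Cebpb, a factor of the acute phase, did not pass, with overlapping libraries at 43.3, 73.98 and 90.3 and 107, 98.8 and 80.1 FPKM (0.51 ± 0.27, adjusted p = 0.186). Ppara, the receptor that drives fatty acid oxidation genes, went from 22.9, 14.9 and 10.4 to 6.55, 7.09 and 7.26 FPKM (-1.04 ± 0.22, adjusted p = 0.00552). Mlxipl, which encodes the carbohydrate response factor ChREBP, went from 127, 26.8 and 34.2 to 8.24, 9.29 and 9.21 FPKM (-2.34 ± 0.46, adjusted p = 0.00368). Its 3 sham libraries differed widely, yet all lay above the BDL libraries. Atf5 fell by 0.84, and Nr1h4, the bile acid receptor FXR, fell by 0.65. The xenobiotic receptor gene Nr1i2 (PXR) was the 1 factor that rose, from 31.2, 25.2 and 21.9 to 38.1, 40.1 and 43.8 FPKM (0.63 ± 0.13, adjusted p = 0.00529). With median-of-ratios scaling 12 factors fell and 1 rose, and without sham library 1 there were 8 falls and 4 rises.

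The genes of each lobular zone moved both ways. Of 24 tested pericentral genes 5 fell, 4 rose and 15 did not pass (median -0.16), and of 27 periportal genes 6 fell, 4 rose and 17 did not pass (median -0.19). The pericentral falls numbered 9 without sham library 1 and 3 without sham library 3 or BDL library 1 or 2, and with median-of-ratios scaling the periportal falls numbered 10 and the rises 2. Within each zone single genes went opposite ways. Cyp1a2, a pericentral monooxygenase of caffeine and arylamines, fell from 236, 379 and 435 to 105, 70.1 and 47.9 FPKM (-2.25 ± 0.37, adjusted p = 0.00142). Glul, the glutamine synthetase of the innermost pericentral cells, was at 181, 300.1 and 294 and 254, 278 and 282 FPKM (0.10 ± 0.19, adjusted p = 0.718), with overlapping libraries. Cyp2e1, the ethanol-inducible P450, missed the threshold with no overlap, at 2226, 3816 and 3398 and 1875, 1859 and 1804 FPKM (-0.73 ± 0.26, adjusted p = 0.0568), and fell without sham library 1 (-0.96). Pericentral Cyp2a5, a coumarin hydroxylase, rose from 330.1, 431 and 334 to 687, 664 and 651 FPKM (0.88 ± 0.17, adjusted p = 0.00368), although not with median-of-ratios scaling (0.59), and Gstm3 rose by 2.05 ± 0.41. The WNT-dependent genes Axin2 and Lgr5, which mark the cells around the central vein, were too low to test, with means of 0.422 and 0.530 FPKM in sham and 0.480 and 0.453 in BDL. Tbx3 fell by 0.71 (adjusted p = 0.0476) with overlapping libraries, and its call was lost without sham library 1 (-0.51) or 3 (-0.69), BDL library 1 (-0.55) or 2 (-0.71), or BDL+LIG library 1 or 3 (-0.71 each).

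On the periportal side Cyp2f2, a P450 that marks these cells, fell from 1057, 938 and 809.9 to 282, 239.97 and 208 FPKM (-1.94 ± 0.16, adjusted p = 1.88e-05). Tat, which starts the breakdown of tyrosine, rose from 302, 248 and 148 to 527, 437 and 382 FPKM (0.99 ± 0.24, adjusted p = 0.0109). In both genes the BDL libraries lay wholly to one side. The urea cycle genes Cps1, Ass1 and Arg1 did not pass. Arg1, the arginase that releases urea, was nearly level at 1346, 1309 and 1011 and 1291, 1323 and 1293 FPKM (0.10 ± 0.19, adjusted p = 0.724), and Ass1 was at 1764, 1723 and 1367 and 1852, 1555 and 1351 FPKM (-0.03 ± 0.20, adjusted p = 0.924). Otc, the cycle's mitochondrial carbamoyltransferase, fell by 0.73 (adjusted p = 0.015), a call lost without BDL library 2 or 3 (-0.73 each). The periportal gluconeogenic genes Pck1 and G6pc and the amino acid lyases Hal and Sds did not pass either, with differences of -0.08, -0.48, -0.44 and -0.45, and Sds fell without BDL+LIG library 2 (-0.45).

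**Figure D2:**
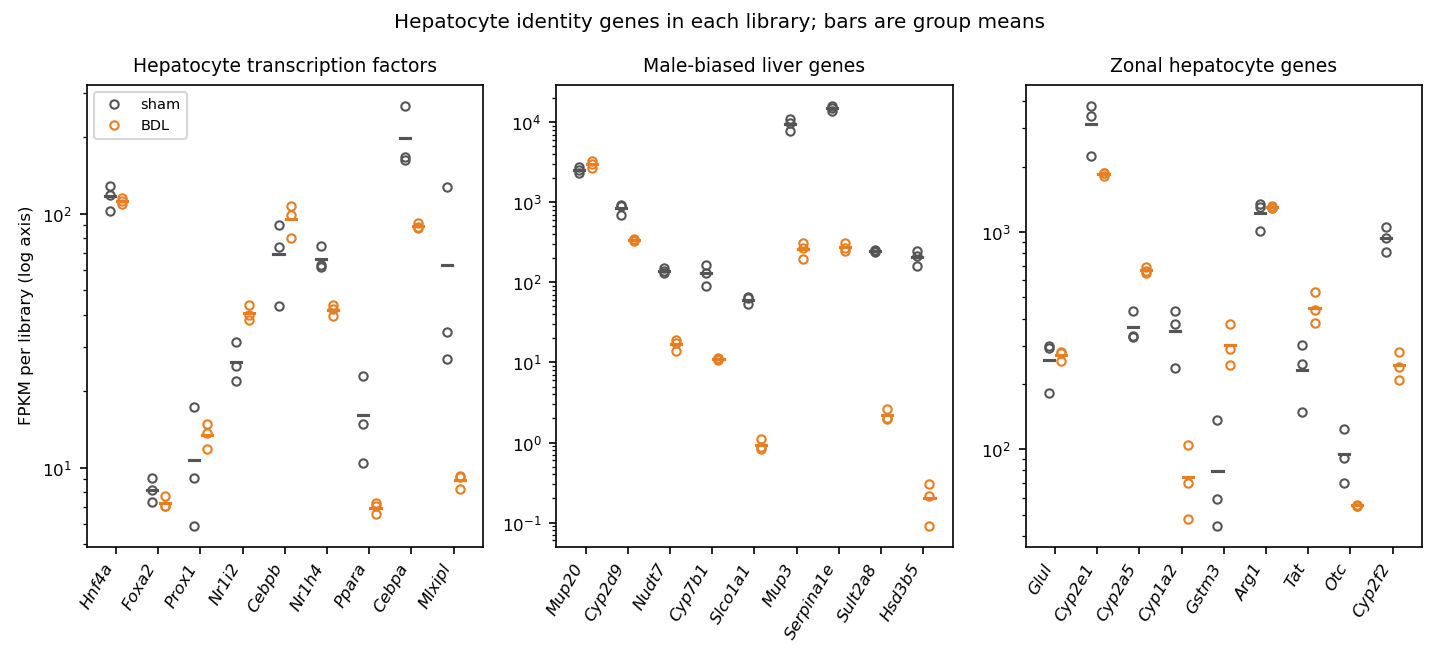
FPKM of each library on a log axis for hepatocyte transcription factors, male-biased genes and zonal genes, with bars at the group means. The 2 groups lie together for Hnf4a, while the BDL libraries lie far below sham for male-biased genes such as Serpina1e.

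The genes that are more abundant in male than in female mouse liver fell almost without exception. Of 28 such genes 27 were tested, of which 23 fell, 0 rose and 4 did not pass, and the falls numbered 23 in each scaling tried and without sham library 1. Of these 27 genes 4 passed the filter through the sham libraries only and had to be lower, and 19 of the other 23 fell. Summed over the list the libraries gave 31399, 44194 and 41092 FPKM in sham and 4706, 4654 and 4448 in BDL. Hsd3b5, a male-specific steroid reductase, went from 161, 211 and 243 to 0.0915, 0.214 and 0.304 FPKM (-7.40 ± 0.16, adjusted p = 2.83e-09). Hsd3b5 was 1 of the 4 that passed the filter through sham only. Slco1a1, an organic anion carrier, went from 64.4, 64.95 and 52.9 to 1.11, 0.830 and 0.890 FPKM (-4.99 ± 0.31, adjusted p = 3.19e-06). Cyp4a12a, a fatty acid hydroxylase, went from 188, 104 and 237 to 14.5, 12.6 and 12.1 FPKM (-3.58 ± 0.25, adjusted p = 6.27e-06). Elovl3, a fatty acid elongase, fell by 4.29 ± 0.29. In these 4 genes, Elovl3 with 40.7, 22.6 and 65.5 FPKM in sham included, no BDL library exceeded 14.5 FPKM and no sham library was under 22.6 FPKM. Of 19 tested major urinary protein genes, which overlap this list, 18 fell, and Mup20 alone did not pass. Of the 19, 3 passed the filter through sham only, and 15 of the other 16 fell. Mup20, also called darcin, was at 2328, 2504 and 2779 and 3229, 3007 and 2679 FPKM with overlapping libraries (0.23 ± 0.27, adjusted p = 0.561), while Mup3 went from 7781, 9771 and 10839 to 198, 271 and 309 FPKM (-5.19 ± 0.29, adjusted p = 2.17e-06). Mup genes are close copies of one another, and how fragments were divided among them is uncertain. The complement genes C8a and C6 and the repressor gene Bcl6, all male-biased, did not pass (0.05, -0.20 and -0.73).

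Female-biased genes moved both ways. Of the 31 such genes measured 17 were tested, and of the 13 that reached 1 FPKM in both groups 6 rose and 1 fell, with a median of 0.33. Cd36, a fatty acid carrier, rose from 2.32, 1.31 and 1.01 to 14.9, 18.3 and 21.002 FPKM (2.93 ± 0.20, adjusted p = 5.41e-06), and Atp6v0d2, a proton pump subunit, rose from 1.08, 0.521 and 0.317 to 10.8, 10.3 and 7.796 FPKM (2.71 ± 0.19, adjusted p = 5.74e-06). Cyp2c40 and Cyp2c69, female-biased as well, fell by 2.20 ± 0.24 and 1.61 ± 0.21, but 1 of these 2 passed the filter through sham only and had to be lower. Several genes that define the female pattern stayed near 0. The means in sham and BDL were 0.0498 and 0.0360 FPKM for Cyp2b9, 0.00445 and 0.00398 for Cyp3a41a, 0 and 0.00800 for Sult2a1 and 0 and 0.0324 for Sult3a1. On the sex chromosomes Xist, the RNA of the inactive X chromosome, was at or below 0.00481 FPKM in all 6 libraries. The Y-linked genes Ddx3y (0.01 ± 0.28, adjusted p = 0.975), Eif2s3y and Kdm5d were tested, and 0 of the 3 passed. Ddx3y was at 6.77, 3.69 and 2.42 and 3.16, 4.29 and 4.83 FPKM. Eif2s3y and Kdm5d were higher in BDL without sham library 1 (0.55 and 0.31), although Kdm5d was at -0.01 with all libraries.

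The growth hormone axis itself moved in parts. Of 15 tested genes 4 fell, 2 rose and 9 did not pass, and the median of -0.06 turned to 0.05 without sham library 1. The largest of the 4 falls was that of Nr1d1 (-3.26), a clock gene in which time of day and ligation cannot be told apart (below). Ghr, the growth hormone receptor, fell from 92.7, 89.9 and 76.8 to 41.4, 45.8 and 44.8 FPKM (-0.95 ± 0.12, adjusted p = 0.00025). Igfals, the plasma partner of IGF1, fell from 43.4, 42.3 and 64.9 to 22.8, 23.01 and 23.8 FPKM (-1.05 ± 0.16, adjusted p = 0.000859), and Egfr fell by 1.02 ± 0.13. Stat5b, the transducer, was at 4.28, 3.67 and 4.16 and 4.39, 4.41 and 4.41 FPKM (0.10 ± 0.12, adjusted p = 0.563). The targets Igf1 and Socs2 did not pass (-0.27 ± 0.13 and 0.04 ± 0.22), although Igf1 fell without sham library 1 (-0.37). Socs3, an inhibitor of cytokine receptors that interleukin-6 induces, rose from 4.13, 12.03 and 6.08 to 22.5, 19.4 and 17.5 FPKM (1.41 ± 0.32, adjusted p = 0.00777), and Cish rose by 1.08 ± 0.32. The call of Cish was lost without BDL library 2 (1.11) or 3 (0.94), and it was 0.67 without sham library 1. Serpina1e, a male-biased member of the alpha-1 antitrypsin family, went from 13623, 16144 and 15030.3 to 244, 268 and 307 FPKM (-5.77 ± 0.27, adjusted p = 1.47e-06), whereas its close copies Serpina1a, Serpina1b, Serpina1c and Serpina1d differed by -0.68, -0.82, -1.40 and -1.34. The call of Serpina1a was lost without sham library 2 (-0.56) or 3 (-0.62) or BDL library 2 (-0.68) or 3 (-0.64). How fragments were divided among these copies is uncertain.

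Plasma protein genes moved both ways. Of 32 tested carriers and hormones 6 rose and 6 fell (median -0.20), and 12 fell with median-of-ratios scaling and also without sham library 1. Ttr, the thyroxine and retinol carrier transthyretin, fell from 4799, 5802 and 7312 to 1742, 1539 and 1367 FPKM (-1.93 ± 0.21, adjusted p = 8.72e-05). Trf, transferrin, rose from 5941, 6174 and 4081 to 12889.7, 12962 and 13142 FPKM (1.29 ± 0.22, adjusted p = 0.00161). Igfbp1, a binding protein of insulin-like growth factors, rose from 21.4, 13.95 and 6.92 to 129, 79.03 and 44.3 FPKM (2.49 ± 0.44, adjusted p = 0.00204). Alb did not pass, with a difference of -0.64 ± 0.27 (adjusted p = 0.106), and fell without sham library 3 (-0.86). Its call also depended on scaling. Alb fell with median-of-ratios scaling (-0.93), with a trend in gene length removed (-0.83) and with voom (-0.64), but not in TPM (-0.55) or with quantile normalization (0.07). Apolipoproteins differed little as a family, with 1 rise and 1 fall among 15 tested genes (5 falls with median-of-ratios scaling, and 2 rises and 6 falls without sham library 1). Apoa4 rose by 0.81, or 0.52 and not called with median-of-ratios scaling, and Apoa2 fell by 1.06. Complement and coagulation gave 13 rises and 8 falls of 46, 6 rises and 11 falls with median-of-ratios scaling, and 8 rises without sham library 2 or any 1 BDL library. C3, the central component of complement, rose from 1139.9, 1004 and 654 to 2928, 3035 and 3198 FPKM (1.75 ± 0.26, adjusted p = 0.00066). C8b, of the membrane attack complex, fell from 274, 298 and 245 to 131, 122 and 110.4 FPKM (-1.17 ± 0.12, adjusted p = 6.92e-05), and C8g fell by 1.08.

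Serpins gave 9 rises and 10 falls of 27 tested genes, and 7 and 9 of the 24 at 1 FPKM in both groups. Serpina3k, a kallikrein inhibitor and among the most abundant of the family, fell from 7557, 9916 and 7851 to 2705, 2409 and 2171 FPKM (-1.79 ± 0.22, adjusted p = 0.000233). Its paralog Serpina3n, an acute phase inhibitor, rose from 160.1, 261 and 154 to 898, 895 and 888 FPKM (2.26 ± 0.36, adjusted p = 0.00118). Serpina6, which encodes the corticosteroid carrier, fell from 289, 232 and 225 to 45.3, 35.03 and 29.5 FPKM (-2.74 ± 0.33, adjusted p = 0.000197). Serpinc1, antithrombin, did not pass (0.07). In the list of iron and haem 15 genes rose and 1 fell of 34, against 9 and 4 with median-of-ratios scaling. Steap4, a metalloreductase, rose from 40.3, 30.7 and 20.1 to 238, 277 and 299 FPKM (3.16 ± 0.23, adjusted p = 6.91e-06). The metallothionein genes Mt1 and Mt2, which bind zinc and copper, rose by 2.91 and 3.14. Mt1 was at 122, 256 and 105 FPKM in sham and 1199.8, 1133 and 1043 in BDL, with no overlap.

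Genes of amino acid breakdown moved both ways, and Bhmt and Mat1a of the methionine cycle were among those that rose. Of 54 tested genes of the urea cycle and amino acid catabolism 14 fell, 7 rose and 33 did not pass (median -0.14), and with median-of-ratios scaling 20 fell and 3 rose. Without sham library 1 there were 11 rises, and without BDL library 2 or 3 there were 9 falls. Bhmt, which remakes methionine from homocysteine and betaine, rose from 788, 898 and 867 to 2975, 3501 and 3833 FPKM (2.01 ± 0.20, adjusted p = 5.95e-05). Mat1a, the enzyme that turns methionine into S-adenosylmethionine, rose from 529.6, 689 and 482 to 1102, 1091 and 1064 FPKM (0.95 ± 0.26, adjusted p = 0.0197). Its call was lost without sham library 3 (0.84) or any 1 BDL library (0.94, 0.95 and 0.97) and with median-of-ratios scaling (0.66). Cth, the last enzyme of cysteine synthesis, rose from 205, 173 and 175 to 435, 404 and 377 FPKM (1.14 ± 0.19, adjusted p = 0.00175). Cbs, the enzyme just before it, fell from 179, 119 and 124 to 67.5, 65.2 and 63.2 FPKM (-1.07 ± 0.17, adjusted p = 0.00108). Neighbouring steps of one pathway thus moved in opposite directions. Agxt, the peroxisomal enzyme that detoxifies glyoxylate, fell from 255, 164 and 190.2 to 76.7, 70.04 and 63.4 FPKM (-1.50 ± 0.16, adjusted p = 9.71e-05), and Prodh2, of hydroxyproline breakdown, fell by 1.37 ± 0.13.

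Genes of cholesterol synthesis rose together. Of 25 tested genes 18 rose, 0 fell and 7 did not pass, with a median of 1.03 against 0.16 over all tested genes, and 18 also rose with median-of-ratios scaling, where 1 fell. Hmgcs1, which makes HMG-CoA, rose from 65.5, 29.4 and 50.1 to 151, 225 and 271 FPKM (2.17 ± 0.30, adjusted p = 0.000477). Mvd, which makes isopentenyl diphosphate, rose from 14.8, 5.52 and 8.95 to 17.9, 25.6 and 32.8 FPKM (1.35 ± 0.33, adjusted p = 0.0109), a call lost without BDL library 3 (1.15). Msmo1, a sterol methyl oxidase of the later steps, rose from 81.3, 53.9 and 54.4 to 108, 162 and 189 FPKM (1.25 ± 0.24, adjusted p = 0.00299). In all 3 every BDL library lay above every sham library. Srebf2, the factor that controls the pathway, rose by 0.89 ± 0.15. Insig1, a further target of that factor, did not pass (0.57), and its libraries overlapped. Without sham library 1 Insig1 rose by 0.97. Lipogenesis genes gave 5 rises and 6 falls of 27, and 4 and 6 of the 26 at 1 FPKM in both groups. There were 3 rises and 8 falls with median-of-ratios scaling, 8 rises without sham library 1 and 3 falls without any 1 BDL library. Fasn, fatty acid synthase, was at 38.9, 16.4 and 18.6 and 38.6, 38.6 and 38.7 FPKM (0.73 ± 0.31, adjusted p = 0.1) and rose by 1.10 without sham library 1.

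The promoters of 3 cholesterol genes that rose are shown because most members of the list share the CCAAT letters, bound by NF-Y, next to which the sterol factor SREBP often acts. Each line gives the 250 bases before the start site (RefSeq, build GRCm38.p6, gene strand, an earlier build than the GRCm39 of the table), 5′ to 3′, with CCAAT or its reverse ATTGG in capitals. Hmgcs1 lies at chr13:119690101-119690350 (plus strand, 3 matches), Mvd at chr8:122443423-122443672 (minus strand, 2 matches) and Msmo1 at chr8:64733579-64733828 (minus strand, 3 matches).
Hmgcs1: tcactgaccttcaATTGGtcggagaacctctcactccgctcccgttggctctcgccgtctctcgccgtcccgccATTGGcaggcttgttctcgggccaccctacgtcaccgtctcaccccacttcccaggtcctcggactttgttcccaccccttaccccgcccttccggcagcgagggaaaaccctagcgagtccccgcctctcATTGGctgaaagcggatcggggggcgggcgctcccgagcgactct
Mvd: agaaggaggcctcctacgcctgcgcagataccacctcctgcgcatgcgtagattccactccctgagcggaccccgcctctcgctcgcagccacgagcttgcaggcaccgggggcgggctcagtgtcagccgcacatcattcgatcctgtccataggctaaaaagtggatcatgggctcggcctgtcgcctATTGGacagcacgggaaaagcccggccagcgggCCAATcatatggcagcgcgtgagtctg
Msmo1: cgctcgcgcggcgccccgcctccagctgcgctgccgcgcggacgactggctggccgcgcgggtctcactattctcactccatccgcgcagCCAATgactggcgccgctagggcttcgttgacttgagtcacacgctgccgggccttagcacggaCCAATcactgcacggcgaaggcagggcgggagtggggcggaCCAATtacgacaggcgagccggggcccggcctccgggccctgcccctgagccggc
On either strand 16 of 17 tested cholesterol genes with a window held CCAAT (94.1%), against 3086 of 7629 tested genes (40.5%) and 10133 of all 27025 symbols with a window (37.5%). Among members that rose 12 of 13 held it and among those not called 4 of 4. The SREBP letters searched, ATCAC and CCAC with any 1 base between them on either strand, were found in 0 of the 17 windows and in 13 of the 7629. A match is a description of the letters and not evidence of binding.

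Many peroxisomal genes fell. Of 37 tested genes 16 fell, 2 rose and 19 did not pass (median -0.36), 23 fell and 0 rose with median-of-ratios scaling, and 10, 9 and 9 fell without BDL library 1, 2 and 3. The summed FPKM was 7488, 7116 and 6249 in sham and 4702, 4546 and 4391 in BDL, without overlap. Cat, catalase, which breaks down hydrogen peroxide, fell from 1221, 1168 and 999.7 to 785, 708 and 659.6 FPKM (-0.65 ± 0.14, adjusted p = 0.00549). Acaa1b, a thiolase of peroxisomal fatty acid oxidation, fell from 313, 167 and 224 to 65.9, 56.4 and 48.5 FPKM (-1.99 ± 0.41, adjusted p = 0.00461). Hao1, glycolate oxidase, fell by 1.62 ± 0.23. Acox2, the oxidase of branched-chain and bile acid intermediates, rose from 63.4, 47.3 and 35.6 to 78.8, 83.1 and 85.5 FPKM (0.78 ± 0.20, adjusted p = 0.0132), a call lost without BDL library 3 (0.76) and with median-of-ratios scaling (0.50). Among the peroxins that import proteins or divide the organelle, Pex16 fell by 0.70, and Pex2, Pex7 and Pex19 did not pass. In the list of glucose and glycogen genes 7 rose and 4 fell of 32 (3 and 7 with median-of-ratios scaling, and 4 rises without sham library 2 or BDL library 2). Gys2, the liver glycogen synthase, fell by 1.72, Pklr, the liver pyruvate kinase, fell by 1.37, and Pkm, the isoform of other tissues, rose from 1.25, 1.55 and 2.24 to 5.201, 6.54 and 7.78 FPKM (1.49 ± 0.27, adjusted p = 0.00217).

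**Figure D3:**
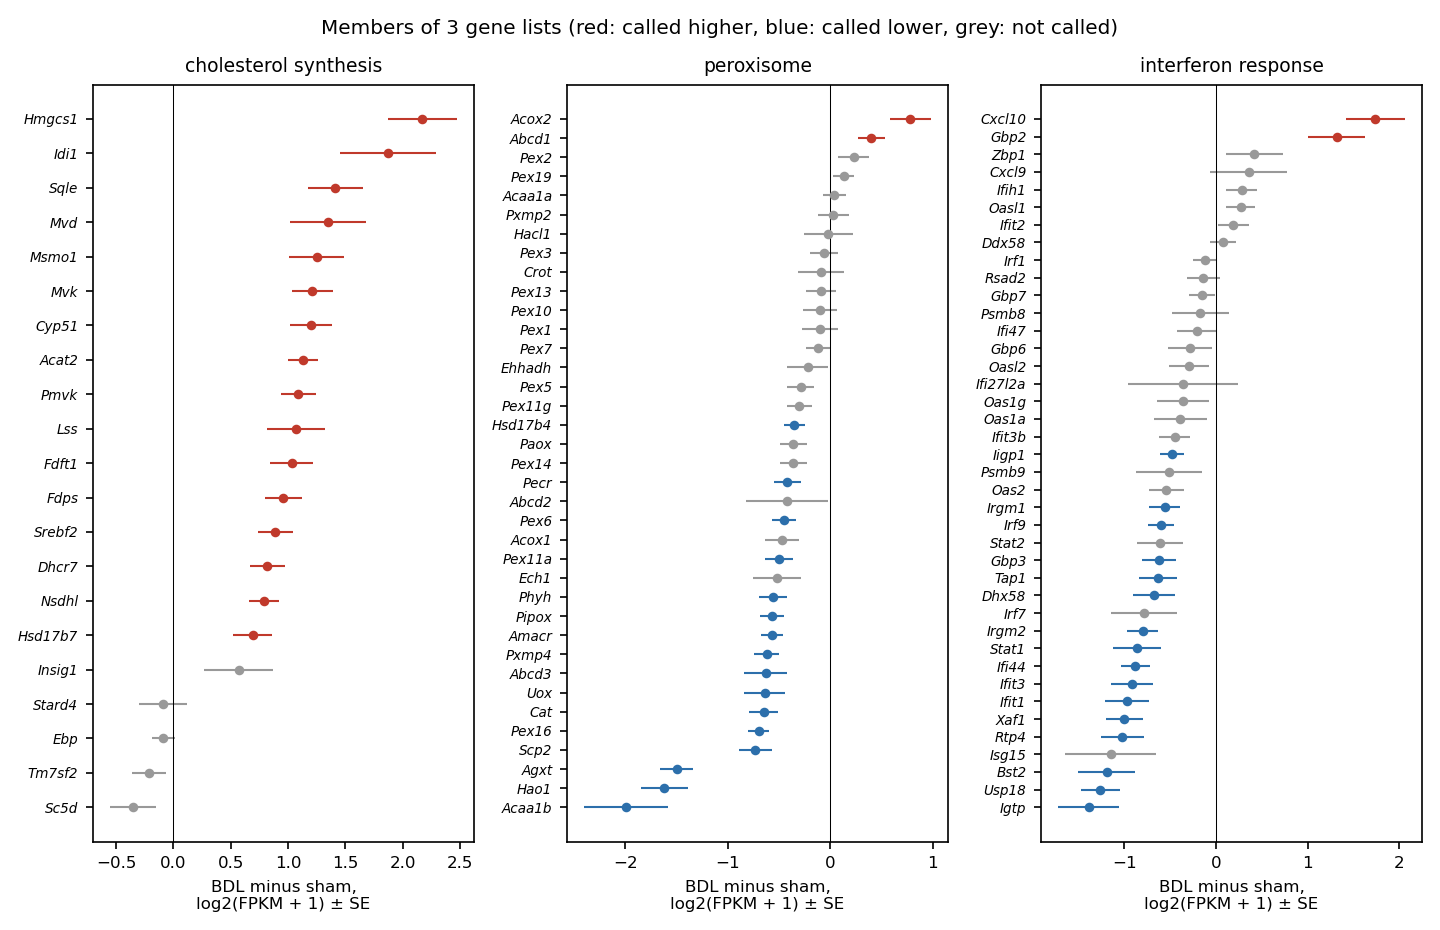
Differences (BDL minus sham, log2(FPKM + 1)) with standard errors for the tested members of the cholesterol synthesis (4 not drawn), peroxisome and interferon lists. Cholesterol genes lie mostly to the right of 0 (18 of 25 rose), peroxisomal and interferon genes mostly to the left (16 of 37 and 16 of 40 fell).

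Several families of detoxifying enzymes held many genes that fell, against the background of 7.22%, and most of them also held members that rose. Close copies within the Cyp2c, Cyp2d, Cyp4a, Ugt2b, Ces1, Ces3, Gst and Sult2a groups make single members uncertain. Of 28 tested Cyp2 genes 11 fell and 4 rose (15 and 2 with median-of-ratios scaling), and of 14 Cyp4 genes 6 fell and 3 rose (9 falls). Among the 25 and 13 of these that reached 1 FPKM in both groups 9 and 6 fell and 3 and 2 rose. Cyp2c29 fell from 363, 356 and 304 to 87.9, 76.5 and 62.96 FPKM (-2.16 ± 0.18, adjusted p = 1.72e-05). Cyp2c70, the enzyme that makes muricholic acids in mice, rose from 379.7, 489 and 287 to 691, 644 and 584 FPKM (0.76 ± 0.19, adjusted p = 0.0128), a call lost without BDL library 1 (0.70) and with median-of-ratios scaling (0.47). Cyp3a11, the main drug-metabolising Cyp3a of mouse liver, did not pass (0.64 ± 0.27, adjusted p = 0.1), but rose without sham library 1 (0.83) or BDL+LIG library 2 (0.64). Among UDP-glucuronosyltransferases, which attach glucuronic acid, 7 of 15 fell and 0 rose. Ugt2b1 went from 324, 269 and 262 to 26.5, 24.1 and 21.1 FPKM (-3.52 ± 0.21, adjusted p = 2.82e-06).

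Carboxylesterases, which hydrolyse lipids and drugs, gave 9 falls and 1 rise among 13 tested genes, 1 of which passed through sham only. Ces3a went from 1074, 1079.99 and 1133 to 170.5, 159 and 162 FPKM (-2.74 ± 0.27, adjusted p = 5.45e-05). The 1 member that rose, Ces1g, a triglyceride hydrolase, went from 69.5, 78.9 and 55.5 to 178, 165 and 161 FPKM (1.31 ± 0.15, adjusted p = 0.000162). Sulfotransferases gave 3 rises and 4 falls of 7, and 2 rises and 2 falls among the 4 at 1 FPKM in both groups. Sult2a8, a bile acid sulfotransferase, went from 245, 252 and 241 to 1.99, 2.62 and 2.0003 FPKM (-6.27 ± 0.32, adjusted p = 1.83e-06), and Sult1a1, the phenol sulfotransferase, rose from 67.6, 66.9 and 42.3 to 189.9, 201 and 216 FPKM (1.79 ± 0.22, adjusted p = 0.00022). Glutathione S-transferases gave 7 rises and 5 falls of 20. Gstp1, the pi-class enzyme that is high in male mouse liver, fell from 2683, 2805 and 2407 to 624, 563 and 546 FPKM (-2.18 ± 0.17, adjusted p = 1.16e-05). With median-of-ratios scaling 3 of these genes rose and 7 fell, and 3 or 4 rose without sham library 2 or 3 or any 1 BDL library. Hydroxysteroid dehydrogenases gave 8 falls and 2 rises of 13, and 7 and 2 of the 12 at 1 FPKM in both groups. The falls numbered 5 without sham library 2 or any 1 BDL library. Hsd11b1, which regenerates active glucocorticoid, fell by 1.57.

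The organic ion carriers Slc22 and Slco gave 5 falls and 3 rises of 14 (9 falls and 2 rises with median-of-ratios scaling), and of the 11 that reached 1 FPKM in both groups 4 fell and 1 rose. The main hepatic uptake carrier Slco1b2 was called only with median-of-ratios scaling (-0.51) and with a trend in gene length removed (-0.46). Zinc carriers gave 5 rises and 0 falls of 16 and no call with median-of-ratios scaling, with 9 rises without sham library 1, 2 without sham library 3 and 1 without each of the other 4. ABC transporters gave 7 rises and 5 falls of 29 (median 0.12), and 5 rises and 5 falls of the 27 at 1 FPKM in both groups. There were 4 rises and 9 falls with median-of-ratios scaling (median -0.16), with 3 falls without sham library 2 or any 1 BDL library. Families of structure and trafficking held many rises. Keratins gave 5 rises of 5, with Krt8 going from 110.3, 109.5 and 96.9 to 785, 779 and 793 FPKM (2.89 ± 0.14, adjusted p = 1.47e-06). Krt8 and Krt18 are the keratin pair of hepatocytes and duct cells. Annexins gave 8 rises of 9, with Anxa2 up by 3.44, and S100 proteins 6 rises and 1 fall of 9. S100a11, a calcium-binding partner of annexins, went from 7.15, 8.18 and 11.99 to 178, 209.7 and 254 FPKM (4.42 ± 0.23, adjusted p = 1.85e-06). Tetraspanins gave 12 rises of 17 and 1 fall, that of Tspan33, from 7.26, 8.31 and 8.25 to 1.87, 2.57 and 2.38 FPKM (-1.45 ± 0.14, adjusted p = 5.46e-05). Genes with the tubulin stem, Tubgcp3 of the gamma-tubulin complex included, gave 7 rises of 14. Collagen chains gave 9 rises and 1 fall (Col5a3, -1.53) of 14 tested of 42 in the table. The call of Col5a3 was lost without sham library 3 (-1.75), any 1 BDL library (-1.42, -1.53 and -1.64) or any 1 BDL+LIG library (-1.53), and it was -0.77 without sham library 1. Of the collagens 3 passed the filter through the BDL libraries only, as did 1 of the keratins, 1 of the genes with the tubulin stem and 2 of the tetraspanins.

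Counts for families of basic cell machinery depended on scaling and on single libraries. Of 82 tested cytosolic ribosomal protein genes 7 rose and 0 fell, with a median of 0.17, and 0 were called in either direction with median-of-ratios scaling. Without sham library 1 the counts were 10 and 5, and without any 1 BDL library 2 or 3 rose. Of 78 mitochondrial ribosomal protein genes 1 rose and 0 fell, while 14 fell with median-of-ratios scaling and 11 without sham library 1. Of 37 proteasome subunits 2 rose and 0 fell, while 3 fell with that scaling and also without sham library 1. Of 49 genes with the symbol stem of complex I, which takes in assembly factors such as Ndufaf7, 10 fell and 1 rose (median -0.32). The falls numbered 18 with median-of-ratios scaling, 35 without sham library 1 and 4 or 5 without sham library 2 or any 1 BDL library. Of 49 genes with the symbol stems of ATP synthase and cytochrome c oxidase 6 fell and 1 rose (median -0.34). The falls numbered 11 with median-of-ratios scaling, 32 without sham library 1, 2 without sham library 3, and 0 without sham library 2 or any 1 BDL library. Vacuolar ATPase subunits, which acidify lysosomes, gave 10 rises and 0 falls of 18, and 9 rises of the 17 at 1 FPKM in both groups. There were 2 rises with median-of-ratios scaling, and 6, 3 and 5 without BDL library 1, 2 and 3. Zinc finger genes of the Zfp series, at low levels, gave 6 rises and 2 falls of 114, and 3 and 2 of the 111 at 1 FPKM in both groups. The other 3 passed the filter through the BDL libraries only. There were 3 rises and 14 falls with median-of-ratios scaling, 31 rises and 3 falls without sham library 1, and 1 or 2 rises without sham library 2 or 3 or BDL library 2 or 3.

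**Figure D4:**
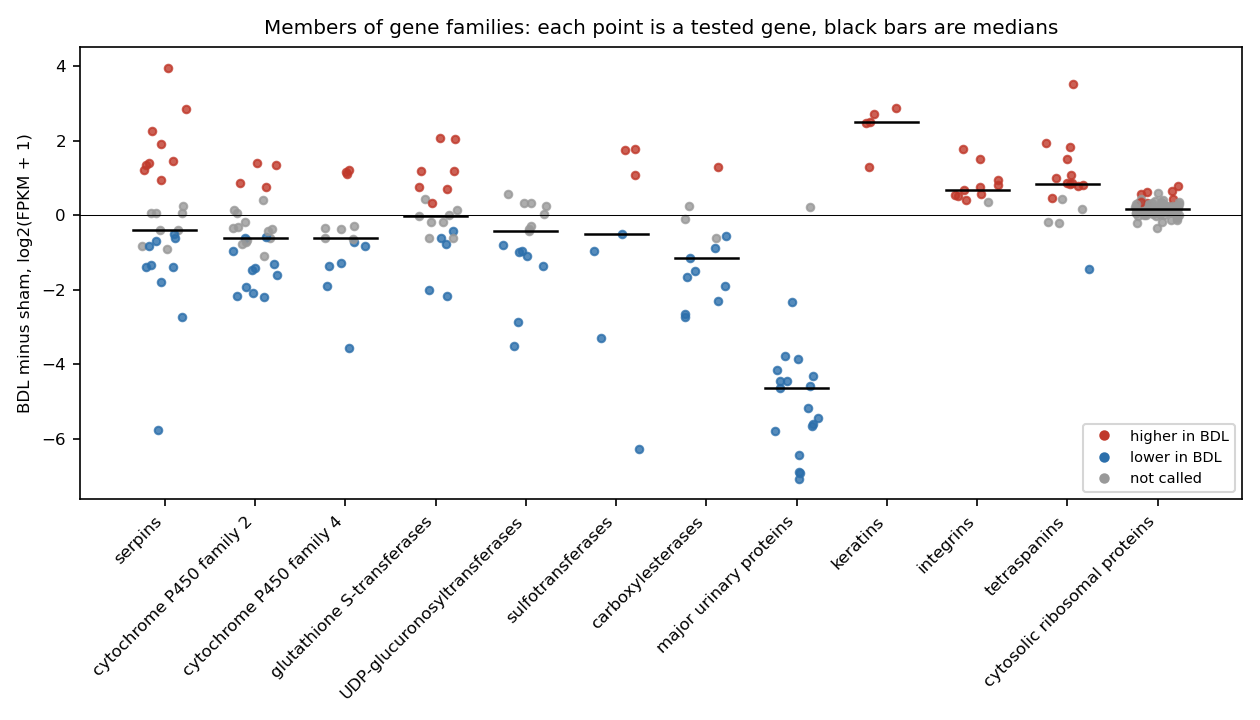
Differences (BDL minus sham, log2(FPKM + 1)) of the tested members of 12 gene families, 1 point per gene, with the median of each family as a bar. The major urinary proteins lie lowest apart from Mup20, and cytosolic ribosomal proteins cluster near their median of 0.17.

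Markers of the other liver cells were read in bulk RNA, in which more cells of a type and more RNA per cell cannot be told apart. Sums of each marker list were taken without its most abundant gene, and lists partly share genes. For bile duct cells (cholangiocytes) the sums were 98.1, 68.8 and 65.6 FPKM in sham and 520.4, 653 and 743 in BDL. Of 28 markers 20 were tested, and of the 13 that reached 1 FPKM in both groups 10 rose and 0 fell. The other 7 passed through the BDL libraries only and had to be higher. Epcam, an adhesion protein of duct and progenitor cells, rose from 1.18, 0.644 and 1.11 to 5.83, 7.98 and 8.36 FPKM (2.08 ± 0.17, adjusted p = 1.79e-05). Elf3, an epithelial transcription factor and 1 of those 7, went from 0.303, 0.480 and 0.673 to 15.6, 16.1 and 13.8 FPKM (3.45 ± 0.17, adjusted p = 1.47e-06). Sox9, which marks ducts and hepatocytes in transition, rose by 1.00 ± 0.18. Of the fetal liver and progenitor list 13 of 34 genes were tested, of which 12 rose and 0 fell (median 2.03). Among the 9 that reached 1 FPKM in both groups 8 rose, and the other 4 tested genes passed through the BDL libraries only. The list shares Epcam, Sox9, Cd24a and Tspan8 with the duct list. The fetal hepatocyte genes were low in both groups. Afp averaged 0.448 and 1.04 FPKM in sham and BDL, Igf2 0.0623 and 0.101 and Gpc3 0.0990 and 0.305, all untested. H19, the imprinted RNA of fetal liver, was at 0.192, 0.173 and 0 and 2.37, 4.36 and 6.75 FPKM (2.21 ± 0.36, adjusted p = 0.00128). H19 passed the filter through the BDL libraries only and had to be higher.

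Macrophage markers were higher for resident and for recruited cells. Kupffer cell markers summed to 258, 388 and 470.3 FPKM in sham and 852, 989 and 1068 in BDL. Rises numbered 17 of 19 tested markers, or 10 of 19 with median-of-ratios scaling, and 16 of the 18 that reached 1 FPKM in both groups. Clec4f, the lectin specific to Kupffer cells, rose from 21.05, 28.6 and 33.3 to 52.3, 54.99 and 59.8 FPKM (1.01 ± 0.21, adjusted p = 0.00529), although not with median-of-ratios scaling (0.72). Marco, a scavenger receptor of macrophages, rose from 4.06, 13.4 and 15.02 to 55.4, 95.2 and 124 FPKM (3.06 ± 0.50, adjusted p = 0.00135). Monocyte and macrophage markers summed to 336 to 407 FPKM in sham and 856 to 1014 in BDL, and 14 of 18 rose and 1, Fabp5, fell among those at 1 FPKM in both groups. A further 7 passed through BDL only. Cd14, the lipopolysaccharide coreceptor, rose from 1.28, 1.29 and 2.48 to 66.6, 76.04 and 75.7 FPKM (4.81 ± 0.30, adjusted p = 3.2e-06). Ly6c2, the marker of inflammatory monocytes, did not pass (-0.33).

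The granulocyte and lymphocyte lists rested on few detected genes. Of 23 neutrophil markers measured 14 were under 1 FPKM in all 6 libraries, among them Ly6g with means of 0.0505 and 0.192 FPKM in sham and BDL, Mpo with 0.0737 and 0.0644 and Elane with 0.422 and 0.451. Of the 7 tested neutrophil markers 6 rose and 1 fell, and among the 5 at 1 FPKM in both groups 4 rose and 1 fell. The other 2 passed through the BDL libraries only and had to be higher. S100a8, the calprotectin subunit of neutrophils and monocytes, rose by 3.17. The 1 that fell was Cebpe, a granulocyte factor (-0.88). Without Lcn2, which hepatocytes also make, the neutrophil list summed to 16.9, 37.5 and 24.3 FPKM in sham and 99.9, 101 and 105 in BDL. T and NK cell markers were near the floor, with 28 of 33 measured under 1 FPKM throughout and 1 tested. They summed to 4.89, 3.91 and 6.62 FPKM in sham and 6.24, 7.75 and 8.38 in BDL, with Cd3e averaging 0.0926 and 0.139 FPKM and Nkg7 0.616 and 0.700. The B cell gene Cd79a averaged 0.504 and 0.148 FPKM, and the markers of conventional and plasmacytoid dendritic cells Xcr1 and Siglech 0.110 and 0.0263 and 0.170 and 0.138. The MHC class II genes H2-Aa, H2-Ab1 and H2-Eb1 and their chaperone Cd74 rose by 1.42, 1.31, 1.5 and 1.68, while the class I genes H2-K1, H2-D1 and B2m did not pass (-0.22, 0.48 and -0.53). The calls of all 4 were lost without sham library 2 (H2-Aa 1.43, H2-Ab1 1.23, H2-Eb1 1.34 and Cd74 1.58) or BDL library 3 (1.26, 1.16, 1.38 and 1.5). Those of H2-Aa, H2-Ab1 and H2-Eb1 were also lost without BDL library 2 (1.36, 1.27 and 1.48), those of H2-Aa and H2-Ab1 without sham library 1 (1.19 and 1.15) or BDL+LIG library 2 (1.42 and 1.31), and that of H2-Aa without sham library 3 (1.63) or BDL library 1 (1.64). H2-D1 rose without sham library 3 (0.65), and B2m fell without sham library 1 (-0.74) or with a trend in gene length removed (-0.62).

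Endothelial and stellate markers moved less than those of ducts and macrophages. Sinusoidal endothelial markers summed to 49.4, 41.8 and 50.5 FPKM in sham and 59.9, 60.7 and 57.5 in BDL. Of 14 tested markers 4 rose, 1 fell and 9 did not pass, with a median of 0.17, which was -0.06 with median-of-ratios scaling (2 rises and 2 falls), and 2 rose without BDL library 2 or 3. Stab2, the hyaluronan receptor of these cells, overlapped at 2.44, 1.23 and 1.71 and 1.56, 2.19 and 2.05 FPKM (0.09 ± 0.18, adjusted p = 0.748), and Clec4g did not pass (0.26 ± 0.17, adjusted p = 0.284). Of the 4 that rose, Mrc1 and Ccl24 are also genes of macrophages, and the call of Mrc1 (0.76) was lost without sham library 2 (0.68) or 3 (0.58) or BDL library 2 (0.73) or 3 (0.67) and with the replicate number as a block. Among vascular endothelial markers Pecam1 did not pass (0.28), and Vwf and Cd34 were too low to test. Vcam1, an adhesion molecule that inflamed endothelium and other cells display, rose from 1.88, 1.57 and 1.81 to 10.9, 12.05 and 11.03 FPKM (2.16 ± 0.21, adjusted p = 4.51e-05). Quiescent stellate cell markers summed to 70.6, 46.1 and 94.4 FPKM in sham and 85.3, 83.7 and 82.9 in BDL, with overlap. Lrat and Reln, which define these cells, were too low to test, at means of 0.535 and 0.897 and 0.522 and 0.748 FPKM in sham and BDL. Of 14 tested markers 6 rose and 0 fell, and 5 rose of the 13 at 1 FPKM in both groups. The rises numbered 3 with median-of-ratios scaling and without sham library 2 or BDL library 1, and 1 without BDL library 2 or 3. Among the 6 were the proteoglycan gene Dcn, from 21.05, 8.82 and 15.1 to 28.1, 29.9 and 26.6 FPKM (0.94 ± 0.29, adjusted p = 0.0328), and the pericyte gene Rgs5, by 1.76 ± 0.36. The call of Dcn was lost without sham library 2 (0.63) or 3 (0.99) or any 1 BDL library (0.95, 0.90 and 0.98), with median-of-ratios scaling (0.67) and with the replicate number as a block. Des, desmin, did not pass (0.15).

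Red cell and platelet genes were also present. The globin gene Hba-a1 rose from 36.7, 60.6 and 48.2 to 114, 116 and 128 FPKM (1.31 ± 0.26, adjusted p = 0.00413), and Hbb-bs rose by 1.45. Alas2, the haem synthesis enzyme of erythroid precursors, fell from 63.4, 55.5 and 55.4 to 11.3, 11.8 and 12.9 FPKM (-2.19 ± 0.22, adjusted p = 5.66e-05), so genes of 1 lineage went opposite ways. Car1, the red cell carbonic anhydrase, fell by 2.17, but it passed the filter through the sham libraries only and had to be lower. The platelet genes Pf4 and Clec1b rose by 1.66 and 1.31, but 1 of these 2 passed the filter through the BDL libraries only and had to be higher. How far blood in the tissue contributed to these values was not tested.

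**Figure D5:**
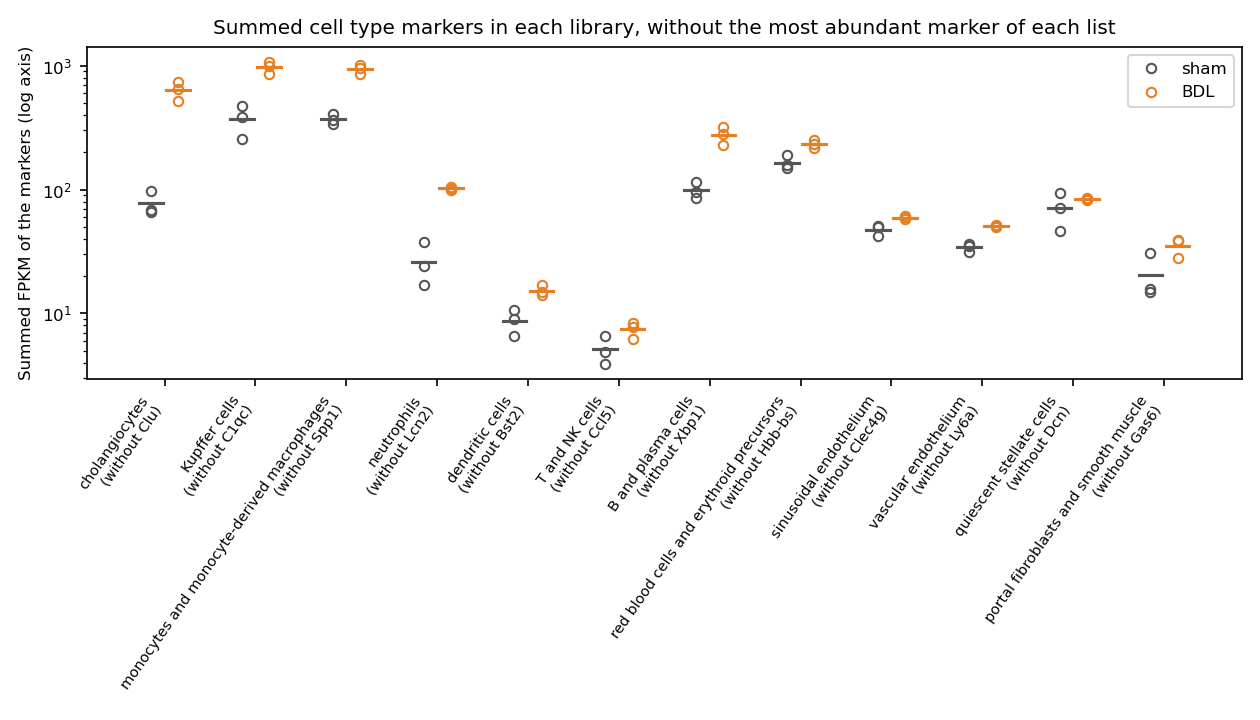
Summed FPKM of the markers of 12 cell types in each library, on a log axis, without the most abundant marker of each list. BDL libraries lie above all sham libraries for cholangiocytes and Kupffer cells and overlap them for quiescent stellate cells.

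Many interferon response genes fell. Of 40 tested genes 16 fell, 2 rose and 22 did not pass (median -0.50), and 22 fell without sham library 1, 8 without BDL library 1 and 10 without BDL library 2. Igtp, an interferon-induced GTPase, went from 23.7, 50.7 and 69.3 to 14.1, 16.9 and 17.6 FPKM (-1.39 ± 0.33, adjusted p = 0.00978). Usp18, which restrains interferon signalling, went from 11.5, 15.2 and 22.7 to 6.08, 6.12 and 5.901 FPKM (-1.26 ± 0.21, adjusted p = 0.00171). Bst2, which tethers enveloped viruses to the cell, went from 191, 332 and 458 to 149, 134 and 119.8 FPKM (-1.19 ± 0.31, adjusted p = 0.0158), a call lost without sham library 2 (-1.14) or BDL library 3 (-1.11). The sham libraries varied from one another in each of these genes while the BDL libraries were close together. Isg15, a ubiquitin-like modifier, showed this most, at 16.7, 43.6 and 105 and 16.7, 18.4 and 21.2 FPKM with overlap (-1.15 ± 0.50, adjusted p = 0.107), and Irf7 did not pass either (-0.78), while both fell without sham library 1 (-1.81 and -1.28). The 2 that rose were the chemokine gene Cxcl10, from 3.27, 7.72 and 7.91 to 29.7, 22.2 and 16.3 FPKM (1.74 ± 0.32, adjusted p = 0.0026), and Gbp2, by 1.32. Siglech, a marker of plasmacytoid dendritic cells, was near 0 in both groups (above), while Bst2 is itself on the list of dendritic cell markers. Whether these cells had a part in the interferon values was not tested.

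The promoters of 3 interferon genes that fell are shown with a form of the interferon-stimulated response element in capitals, namely 2 copies of GAAA with any 2 bases between them, or the reverse with TTTC, in the same window, build and direction as above. Igtp lies at chr11:58199306-58199555 (plus strand, 1 match), Bst2 at chr8:71537473-71537722 (minus strand, 2 overlapping matches) and Ifit1 at chr19:34640639-34640888 (plus strand, 2 matches).
Igtp: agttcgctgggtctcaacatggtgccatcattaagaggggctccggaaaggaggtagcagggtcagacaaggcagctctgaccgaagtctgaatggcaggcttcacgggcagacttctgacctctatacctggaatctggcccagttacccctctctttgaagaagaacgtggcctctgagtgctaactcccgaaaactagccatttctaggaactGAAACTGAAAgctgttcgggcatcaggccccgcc
Bst2: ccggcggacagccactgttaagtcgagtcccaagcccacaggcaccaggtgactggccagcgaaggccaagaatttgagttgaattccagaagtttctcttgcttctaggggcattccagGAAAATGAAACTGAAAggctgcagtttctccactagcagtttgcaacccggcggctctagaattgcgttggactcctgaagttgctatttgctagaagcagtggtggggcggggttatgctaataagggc
Ifit1: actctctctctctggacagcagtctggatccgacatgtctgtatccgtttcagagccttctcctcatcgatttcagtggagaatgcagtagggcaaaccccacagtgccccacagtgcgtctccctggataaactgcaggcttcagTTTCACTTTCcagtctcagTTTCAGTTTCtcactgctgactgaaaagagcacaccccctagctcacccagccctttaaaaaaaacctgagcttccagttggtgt
On either strand 16 of 31 tested interferon genes with a window held the letters (51.6%), against 240 of 7629 tested genes (3.15%) and 936 of 27025 symbols (3.46%). Among the members that fell 7 of 11 held them, among those not called 7 of 18, and both that rose held them. Ifit1 went from 4.95, 5.14 and 9.49 to 2.04, 2.79 and 3.46 FPKM (-0.97 ± 0.24, adjusted p = 0.0126), a call lost without BDL library 1 (-0.82), and that of Bst2 was lost without sham library 2 or BDL library 3.

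Some genes of growth arrest rose, while most mitotic genes were too low to test. Of 19 tested p53 targets and senescence genes 9 rose, 0 fell and 10 were not called, and of the 17 at 1 FPKM in both groups 7 rose. Cdkn1a, the cell cycle inhibitor p21, went from 0.311, 0.125 and 0.549 to 29.5, 24.9 and 23.3 FPKM (4.35 ± 0.17, adjusted p = 5.15e-07). Cdkn1a passed the filter through the BDL libraries only and had to be higher. Btg2, an antiproliferative p53 target, rose from 2.77, 2.27 and 2.06 to 17.8, 18.7 and 16.4 FPKM (2.47 ± 0.13, adjusted p = 1.83e-06). The p53 targets Mdm2 and Bax did not pass (0.41 and 0.67), but Mdm2 rose without sham library 1 (0.76) and Bax without sham library 3 (0.97). Bax also rose in TPM (0.77) and with a trend in gene length removed (0.57). Of 34 genes of G2 and M phase 27 were under 1 FPKM in all 6 libraries. Mki67, the proliferation antigen, was at 0.290, 0.160 and 0.117 FPKM in sham and 0.229, 0.446 and 0.481 in BDL, and Top2a at 0.263, 0.210 and 0.355 and 0.515, 0.962 and 0.871, both untested. In the S phase list 3 of 26 tested genes rose and 2 fell, and of the 22 at 1 FPKM in both groups 2 rose and 2 fell. The rises numbered 1 with median-of-ratios scaling, 12 in a fit of the 6 libraries alone, 0 without sham library 3 or BDL library 1 or 2, and 1 without sham library 2 or BDL library 3. Mcm10, a replication initiation factor, fell from 20.7, 14.8 and 21.8 to 2.02, 1.72 and 2.33 FPKM (-2.72 ± 0.24, adjusted p = 2.51e-05), while Mcm6, a subunit of the replicative helicase, rose from 0.857, 0.618 and 0.750 to 3.08, 2.98 and 3.23 FPKM (1.24 ± 0.41, adjusted p = 0.0459). Mcm6 passed the filter through the BDL libraries only and had to be higher. Its call was lost without sham library 2 (1.18) or 3 (1.24), any 1 BDL library (1.24, 1.26 and 1.21) or BDL+LIG library 3 (1.24).

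Immediate early genes, which cells transcribe within minutes of a stimulus, gave 17 rises and 1 fall of 24 tested genes. Of these, 3 passed the filter through BDL only, and 14 of the other 21 rose. Gadd45g, a stress-induced growth arrest gene, went from 2.72, 6.27 and 3.47 to 35.9, 34.9 and 38.6 FPKM (2.92 ± 0.27, adjusted p = 3.58e-05). Its paralog Gadd45a was the 1 that fell (-1.07). The AP-1 genes Fos and Jun rose by 2.19 and 2.25, and Atf3, of the same class of factors, by 2.66. Atf3 passed the filter through BDL only and had to be higher. Such genes respond to the handling of tissue too, and its part was not tested. Circadian clock genes gave 5 rises and 6 falls of 18 (median 0.12), and 2 rises and 8 falls with median-of-ratios scaling (median -0.11). There were 9 rises without sham library 1 and 2 or 3 without any 1 of the other 5 libraries, and 2 falls without BDL library 1 and 3 without BDL library 2. Nr1d1, the clock repressor REV-ERB alpha, fell from 53.3, 19.6 and 42.2 to 2.29, 3.13 and 3.07 FPKM (-3.26 ± 0.31, adjusted p = 3.96e-05), and Dbp, a clock output factor, fell from 81.6, 72.9 and 116 to 8.34, 12.4 and 15.8 FPKM (-2.80 ± 0.22, adjusted p = 1.36e-05). Cry1, another repressor of the clock, rose by 1.05. The sources used here give no time of day of sampling, so time of day and ligation cannot be told apart in these genes.

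The cytoskeleton list gave 35 rises and 0 falls of 47 tested genes, with a median of 1.24. There were 34 rises among the 46 at 1 FPKM in both groups, and 29 rises with median-of-ratios scaling. Its share of the summed FPKM was 0.26% to 0.302% in sham and 0.8% to 0.875% in BDL. Tagln2, an actin-binding protein, went from 5.72, 7.03 and 11.6 to 75.1, 78.99 and 80.3 FPKM (3.17 ± 0.20, adjusted p = 3.83e-06), and Actb, the cytoplasmic actin, rose by 0.85, or 0.56 and not called with median-of-ratios scaling. Junction and polarity genes gave 22 rises and 2 falls of 36, with 14 rises without BDL library 2 or 3 and 4 falls without sham library 1. F11r, a tight junction protein, rose by 1.60. Gjb1, the main gap junction protein of hepatocytes, fell from 334, 299.5 and 346 to 194, 192 and 193 FPKM (-0.75 ± 0.11, adjusted p = 0.000618). Lysosome and autophagy genes gave 22 rises and 2 falls of 52 (12 and 5 with median-of-ratios scaling). Targets of NRF2, the factor of the oxidative stress response, gave 16 rises and 4 falls of 30 (10 rises with that scaling, and 2 falls without any 1 BDL library). Osgin1, an oxidative stress gene, was among those that fell (-1.04). Endoplasmic reticulum genes gave 14 rises and 1 fall of 36, and 13 and 1 of the 35 at 1 FPKM in both groups. There were 4 rises and 5 falls with median-of-ratios scaling, and 8 and 7 rises without BDL library 2 and 3. Targets of YAP and TEAD gave 12 rises and 0 falls of 20, of which 4 passed the filter through BDL only.

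A few genes were found in 1 group alone, with every library of the other group under 0.1 FPKM and every library of their own at 1 FPKM or more. This held for 8 genes in BDL and 3 in sham, of the 384 tested genes that reached 1 FPKM in no sham library and the 75 that reached it in no BDL library. Duoxa2, a maturation factor of a hydrogen peroxide-producing oxidase, was at 0.0691, 0 and 0 FPKM in sham and 3.25, 3.84 and 3.28 in BDL. Mmp12, the macrophage elastase, was at 0.0365, 0.00749 and 0.0152 and 2.53, 2.64 and 3.48, Wfdc3 at 0.0934, 0.0436 and 0.00884 and 2.17, 2.16 and 2.12, and Guca2b, which encodes uroguanylin, at 0, 0.0469 and 0 and 1.02, 1.67 and 1.81. Of the sham genes the carboxylesterase Ces4a was at 1.403, 2.95 and 1.99 FPKM in sham and 0.0604, 0.0808 and 0.0826 in BDL, and Serpina9 at 1.29, 2.23 and 1.51 and 0.0133, 0 and 0.0156.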

How the data were processed

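Total RNA of mouse liver was sequenced in 9 libraries, of which 3 sham and 3 BDL libraries were compared. Per the labels' protocols TRIzol was used for extraction and the VAHTS Universal V6 kit for library construction. The tools named in the submitters' processing notes are HISAT2 2.1.0, fastp and DESeq2, and the build named there is GRCm39. Not given in the sources used here are the annotation and the counting program. The authors deposited FPKM in 1 table for all libraries, and columns were tied to samples by their titles. FPKM values of a gene are whole multiples of the value of 1 fragment, and fragments were recovered within 0.02 for 19395 of 19449 genes above 0 in at least 2 libraries (99.72%). The totals served as depth and for the alternative with voom.

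The test was limma 3.58.1, run in R 4.3.3 on log2(FPKM + 1) with a trended eBayes prior, with a coefficient for each of the 3 groups, after the filter of 1 FPKM in 3 of 6 libraries. It was tested on simulated data. The alternatives tried were scaling by median-of-ratios, by quantiles and to TPM, pseudocounts of 0.1 and 0.5, omission of the filter or a minimum mean of 5 FPKM, a fit of the 6 libraries alone, robust eBayes, the replicate number as a block and each library left out. Voom on the recovered fragments and removal of a trend in gene length (loess, span 0.4) were added after seeing the data.

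The lists, families and named genes were chosen with earlier results of these data known. Lists hold markers from general knowledge, and families are symbols with a shared stem in the table. A list is described by its calls and median, with no set test. Named genes are, per list, up to 4 with the largest changes and a group mean of at least 5 FPKM, up to 2 abundant ones not called, defining members near 0, and a set of identity genes. Clones, predicted genes and pseudogenes were left out. Others, such as Mvd, Msmo1, Nr1i2, Col5a3, Tspan33, Gadd45a, Ifit1, Mcm6 and the MHC genes, were chosen after their values were seen. Some genes that the rule names are not reported here by name, while counts and sums include them. Promoter windows are RefSeq sequences of GRCm38.p6 matched by symbol, for 7629 of the 9430 tested genes.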

Additional observations from a re-analysis of the deposited data

How the results depend on the processing

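Whole-table counts depended on scaling, on the filter and on single libraries. The 2152 rises became 1203 among genes with a mean of at least 5 FPKM and 1317 with median-of-ratios scaling. The 681 falls became 1378 with quantile normalization, 1448 with median-of-ratios scaling and 1486 with a trend in gene length removed. The median of 0.16 was 0.03 with no filter, 0.25 in TPM, -0.07 with median-of-ratios scaling, and -0.03 both after quantile normalization and with the length trend removed. Kdm5d, not called at -0.01, ran from -0.20 without sham replicate 3 to 0.31 without sham replicate 1, where it was called. Leaving out each of the 9 libraries in turn gave 1368 to 3481 rises, 447 to 933 falls and medians of 0.12 to 0.24. The libraries that moved a count by more than 1.5 times were sham 1, BDL 2 and BDL 3. With the replicate number as a block there were 1980 rises and 656 falls. Same-numbered libraries did not deviate together (correlations of -0.135, 0.00735 and -0.0886). With 3 libraries per group this cannot show whether the numbers pair the samples. Depth was close to even, and genes under 1 FPKM were not tested.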
